A study of Homo sapiens with 9 samples.

Results

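The monocarboxylate transporter family, SLC16, was described here by 9 genes of the count table: SLC16A1, SLC16A3, SLC16A5, SLC16A6, SLC16A7, SLC16A9, SLC16A13, SLC16A14 and BSG, the chaperone of the best studied members. They were chosen by family name and with their counts in these same libraries in view, out of 57905 genes in all, and other SLC16 genes are given beside them. The cells were A549, an established human lung adenocarcinoma line, with 3 libraries in each of 3 groups. The first group, shAKR1B1, carried a short hairpin RNA against AKR1B1, the aldose reductase that turns glucose into sorbitol. The second, shSORD, carried a hairpin against SORD, the sorbitol dehydrogenase that turns sorbitol into fructose. The control, plko, is called scrambled in its treatment label. The labels name a single hairpin per target and give neither a time after transduction nor a clone. All cells grew in medium with 5% serum. The comparisons describe transcripts for transporters of lactate, pyruvate, ketone bodies and related small acids in cells with a hairpin against either polyol pathway enzyme. With a single hairpin per target, an effect of the lowered enzyme and any other effect of its hairpin cannot be told apart.

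Monocarboxylate transporters carry lactate, pyruvate and ketone bodies across the plasma membrane together with a proton. MCT1 (SLC16A1) and MCT4 (SLC16A3) reach the membrane with basigin, the product of BSG, whereas MCT2 (SLC16A7) pairs with embigin. MCT4 is known as the lactate exporter of strongly glycolytic cells, MCT1 works in either direction and MCT2 takes up lactate and pyruvate at low concentrations. Other family members carry aromatic amino acids, carnitine or creatine, and several have no settled substrate.

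Totals ran between 32436524 and 43044456 assigned reads per library. The first principal component held 63.6% of the variance and set plko (scores of -43.59 to -42.68) apart from both knockdown groups (12.48 to 30.09). AKR1B1 averaged 154 ± 11.7 CPM (counts scaled to library size) in shAKR1B1, 1063 ± 103 in shSORD and 1416 ± 34.7 in plko, and SORD averaged 30.5 ± 0.411, 8.62 ± 0.414 and 42.9 ± 1.19 CPM in the same groups (SD, n = 3 each). Each hairpin thus went with a low level of its own target, and the other enzyme was also below plko in both groups. Summed CPM of 10 lung epithelial markers was 12317 to 12941 in shAKR1B1, 10749 to 12800 in shSORD and 8686 to 8909 in plko. KRT8, KRT18 and KRT7 held most of this sum, at 3886, 2718 and 2015 CPM in plko. EPCAM, CDH1, KRT8, KRT18 and KRT19 had higher means in both knockdowns than in plko. KRT7 went the other way, with log2 fold changes of -0.76 in shAKR1B1 and -0.21 in shSORD. Of the 10 markers the surfactant gene SFTPB was at 0 in all libraries. SFTPA1, SFTPC and NKX2-1 averaged 0.0092, 0.258 and 0.07 CPM in plko. Summed CPM of 7 fibroblast markers was 8.82 to 10.3 in shAKR1B1, 34.6 to 55.6 in shSORD and 14.8 to 16.4 in plko. COL1A1 held most of it, at means of 8.92, 36.4 and 15 CPM in these groups. LUM was instead higher in shAKR1B1 than in plko, at 0.236 against 0.0184 CPM, on 4 to 12 against 0 to 2 reads per library. In shSORD LUM averaged 0.471 CPM. COL1A2, COL3A1, PDGFRB and DCN also had higher means in shSORD, at 2.72, 1.59, 0.738 and 0.0498 CPM. Their plko means were 0.196, 0.123, 0.188 and 0.0177 CPM. PDGFRA went the other way, at 0.0926 CPM in shSORD against 0.187 CPM in plko. Sums of the immune and endothelial lists stayed below 0.8 CPM. The marker levels moved with the groups, and their part in the results that follow was not tested. In bulk RNA, fewer cells of a type and less RNA per cell cannot be told apart.

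Promoter windows from RefSeq (build GRCh38.p14) spanned 250 bases before to 50 after a transcript start. None was at hand for SLC16A1, SLC16A5, SLC16A6 and SLC16A13, so the promoters of these genes were not searched. For 5 of the 9 members there were 12 windows in all. They were searched on both strands for ACGTG, the core of the hypoxia response element, and for CACGTG, an E-box that MYC and MLX partners bind and that holds the core on either strand. HIF1A, EPAS1, MYC, MLXIP and MLXIPL transcripts are reported further on, which is why these stretches are shown. In 3 windows, a single one each of SLC16A9 (of its 2 windows), SLC16A3 (of 5) and BSG (of 2), the core was present. Distances are given to the start of that window, and which starts these cells use was not measured. Over all 35116 windows, 21.4% held the core and 7.26% the E-box. The stretches are printed 5′ to 3′ on the strand of the gene, with the core or the E-box in capitals.
SLC16A9: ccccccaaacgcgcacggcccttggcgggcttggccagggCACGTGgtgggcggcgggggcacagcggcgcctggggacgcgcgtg
SLC16A3: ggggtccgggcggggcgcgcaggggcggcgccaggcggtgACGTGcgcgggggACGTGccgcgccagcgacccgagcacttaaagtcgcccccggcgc
BSG: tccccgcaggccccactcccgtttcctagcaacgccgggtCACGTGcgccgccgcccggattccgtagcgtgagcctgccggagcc
The first lies at chr10:59710081-59710166 on the minus strand, and its E-box ends 41 bases before the start. The second lies at chr17:82228934-82229031 on the plus strand and holds 2 copies of the core in direct repeat, the nearer copy ending 50 bases before the start. The third lies at chr19:572363-572448 on the plus strand, with an E-box that ends 187 bases before the start. These matches describe letters only, and binding was not measured.

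All 9 members passed the filter on low counts. Counts were compared with edgeR's quasi-likelihood test over all 16916 genes that passed, and a gene was called where its Benjamini-Hochberg adjusted p was under 0.05. Because the members were chosen on these libraries, their calls are a description. In shAKR1B1 against plko, 3 members were called higher and 5 lower, where 27.8% of all genes were called higher and 29.6% lower. In shSORD against plko, 1 member was called higher and 4 lower, where 27.5% of all genes were called higher and 29% lower. In shAKR1B1 against shSORD, 2 members were called higher and 1 lower, where 15.5% of all genes were called higher and 15.1% lower. The median log2 fold change of the 9 members was -0.20, -0.11 and 0.15 in these comparisons, and that of all genes tested was -0.00, -0.00 and 0.01. Both comparisons with plko share the same 3 control libraries, so each one's values are given side by side.

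**Figure D1:**
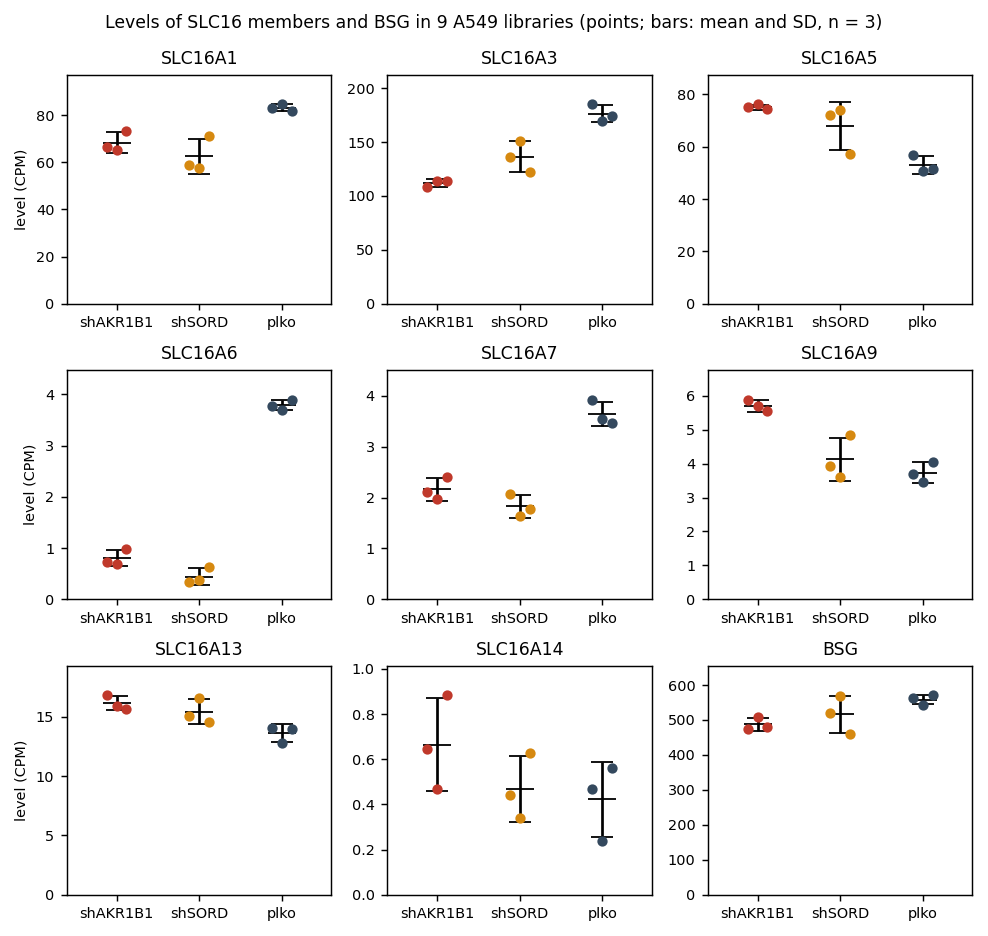
Level of each of the 9 members in CPM (vertical axis, starting at 0 in each panel) in the 3 libraries of shAKR1B1, shSORD and plko (points), with mean and SD as bars. SLC16A6 and SLC16A7 lie far below plko in both knockdown groups, SLC16A5 lies above it in both, and SLC16A9 is high in shAKR1B1 alone.

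SLC16A3 (ENSG00000141526), the lactate exporter MCT4, had 108, 114 and 114 CPM in shAKR1B1 and 136, 151 and 122 CPM in shSORD, against 185, 170 and 174 CPM in plko. The libraries of the 3 groups did not overlap, and shAKR1B1 was lowest. Its mean was 63.6% of the plko mean in shAKR1B1 and 77.4% in shSORD. The log2 fold change was -0.65 (SE 0.0689) in shAKR1B1 and -0.37 (SE 0.0685) in shSORD, both called lower. Between the knockdowns SLC16A3 was also called lower in shAKR1B1, by a log2 fold change of -0.28 (SE 0.0689). The gene lies on chromosome 17 and overlaps CSNK1D, a casein kinase gene on the opposite strand. CSNK1D had a log2 fold change of -0.20 in shAKR1B1 (edgeR adjusted p = 0.007) and -0.03 in shSORD (adjusted p = 0.711). Whether the authors counted by strand is not given in the sources used here, so reads of overlapping genes on opposite strands may not be told apart.

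SLC16A1 (ENSG00000155380), the lactate and pyruvate carrier MCT1, had 66.4, 65.4 and 73.4 CPM in shAKR1B1 and 58.9, 57.7 and 71 CPM in shSORD, against 83.2, 84.6 and 81.9 CPM in plko. Every knockdown library lay below every plko library, and the knockdowns overlapped each other. SLC16A1 had log2 fold changes of -0.28 (SE 0.0754) in shAKR1B1 and -0.41 (SE 0.0755) in shSORD, both called lower. Between the knockdowns it was 0.13 (SE 0.0757) and was not called (edgeR adjusted p = 0.217). Replicate 3 of shSORD lay above its other 2 libraries, and without it the value was 0.23 (adjusted p = 0.00551). The antisense transcript SLC16A1-AS1, which overlaps the gene on chromosome 1, had a log2 fold change of -0.54 in shAKR1B1 (adjusted p = 0.00699) and -0.34 in shSORD (adjusted p = 0.0611, or -0.44 with adjusted p = 0.0339 without shSORD replicate 1).

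Per kilobase of transcript, SLC16A3 stood 3.94, 4.2 and 3.76 times above SLC16A1 in shAKR1B1, 5.58, 6.3 and 4.15 times in shSORD and 5.35, 4.85 and 5.12 times in plko. The ratio was thus lower in every shAKR1B1 library than in every plko library, while shSORD spanned both. Its mean was 3.97 ± 0.221 in shAKR1B1, 5.34 ± 1.09 in shSORD and 5.11 ± 0.25 in plko (SD, n = 3 each). The size of the ratio depends on the transcript length taken for each gene, but its order between groups does not, since lengths are the same in all libraries.

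BSG (ENSG00000172270), the basigin chaperone that brings MCT1 and MCT4 to the membrane, had 474, 508 and 481 CPM in shAKR1B1 and 519, 568 and 461 CPM in shSORD, against 562, 543 and 570 CPM in plko. All shAKR1B1 libraries lay below all plko libraries, whereas shSORD spanned both groups. The log2 fold change of BSG was -0.20 (SE 0.0653) in shAKR1B1, called lower, with an edgeR adjusted p of 0.0189. That call was lost without plko replicate 3 (-0.17, adjusted p = 0.103), without shAKR1B1 replicate 1 (-0.18, adjusted p = 0.0737) and without shAKR1B1 replicate 3 (-0.19, adjusted p = 0.0561). In shSORD it was -0.11 and not called (adjusted p = 0.149), but -0.19 (adjusted p = 0.00813) without shSORD replicate 2. Between the knockdowns it was -0.08 (adjusted p = 0.38), or -0.16 (adjusted p = 0.0248) without shSORD replicate 3. The antisense transcript BSG-AS1 overlaps BSG on chromosome 19 at 1.85 ± 0.346 CPM in shAKR1B1, 2.55 ± 0.162 CPM in shSORD and 2.34 ± 0.359 CPM in plko (SD, n = 3 each). BSG-AS1 was lower in shAKR1B1 than in shSORD by a log2 fold change of -0.47 (adjusted p = 0.0402). That call was lost with DESeq2 (adjusted p = 0.0629), with 2 groups only (adjusted p = 0.0547), without replicate 2 (-0.32, adjusted p = 0.191) or 3 (-0.53, adjusted p = 0.0625) of shAKR1B1, and without replicate 1 (-0.47, adjusted p = 0.0823) or 2 (-0.43, adjusted p = 0.0884) of shSORD.

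Basigin has relatives and partners at the membrane. Of 6 such genes tested, 1 was called higher and 3 lower in shAKR1B1, and 1 higher and 2 lower in shSORD. Over all genes, 27.8% were called higher and 29.6% lower in shAKR1B1, and 27.5% and 29% in shSORD. EMB encodes embigin, the chaperone of MCT2. EMB averaged 8.87 ± 0.5 CPM in shAKR1B1 and 8.67 ± 1.85 CPM in shSORD, against 8.52 ± 1.22 CPM in plko, and was called in neither comparison with plko (edgeR adjusted p = 0.761 and 0.908). NPTN, encoding the basigin relative neuroplastin, was higher by a log2 fold change of 0.17 in shAKR1B1 (adjusted p = 0.0387) and 0.17 in shSORD (adjusted p = 0.0419). Leaving out plko replicate 2 or 3 ended both calls of NPTN, with adjusted p of 0.111 and 0.104 in shAKR1B1 and 0.119 and 0.118 in shSORD. The shAKR1B1 call of NPTN was also lost without shAKR1B1 replicate 1 (adjusted p = 0.0897) or 3 (adjusted p = 0.178), and the shSORD call without shSORD replicate 3 (adjusted p = 0.0791). CD44, a hyaluronan receptor that associates with basigin, had 312, 286 and 282 CPM in shAKR1B1 and 298, 255 and 265 CPM in shSORD, against 506, 513 and 532 CPM in plko. CD44 was lower by a log2 fold change of -0.82 in shAKR1B1 (adjusted p = 4.52e-08) and -0.92 in shSORD (adjusted p = 1.85e-08). SLC3A2, the heavy chain of the CD98 amino acid transporters, which also binds basigin, fell to 488 ± 35.9 CPM in shAKR1B1, against 777 ± 3.92 CPM in plko (SD, n = 3 each), a log2 fold change of -0.67 (adjusted p = 2.38e-06). In shSORD it was at 752 ± 88.3 CPM and was not called (-0.05, adjusted p = 0.605). The difference in SLC3A2 between shAKR1B1 and shSORD was itself called (-0.62, adjusted p = 1.46e-05). The cyclophilin PPIA, an extracellular ligand of basigin, fell by 0.26 (adjusted p = 0.000684) in shAKR1B1 and by 0.15 (adjusted p = 0.0219) in shSORD on the log2 scale. The shSORD call of PPIA was lost under 6 alternatives, among them each plko library left out (adjusted p between 0.0503 and 0.0728) and shSORD replicate 1 left out (adjusted p = 0.166). PPIB was called in neither (adjusted p = 0.561 and 0.145), though in shSORD it was 0.14 without shSORD replicate 3 (adjusted p = 0.0235) and with the stricter filter (adjusted p = 0.0347).

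SLC16A7 (ENSG00000118596), the high-affinity carrier MCT2, had 2.11, 1.97 and 2.41 CPM in shAKR1B1 and 2.07, 1.63 and 1.78 CPM in shSORD, against 3.92, 3.55 and 3.46 CPM in plko. Every knockdown library was below every plko library. These levels rest on 69 to 104 reads per library in shAKR1B1, 67 to 80 in shSORD and 134 to 142 in plko. SLC16A7 had log2 fold changes of -0.75 (SE 0.134) in shAKR1B1 and -0.99 (SE 0.137) in shSORD, both called lower. Between the knockdowns it was 0.25 (SE 0.146) and not called (edgeR adjusted p = 0.217).

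SLC16A6 (ENSG00000108932), called MCT7 and known from zebrafish liver as an exporter of ketone bodies, had 0.735, 0.691 and 0.974 CPM in shAKR1B1 and 0.337, 0.366 and 0.627 CPM in shSORD, against 3.78, 3.69 and 3.89 CPM in plko. These levels correspond to 24 to 42 reads per library in shAKR1B1, 13 to 25 in shSORD and 137 to 153 in plko. No libraries overlapped between groups. The log2 fold change was -2.23 (SE 0.183) in shAKR1B1 and -3.09 (SE 0.202) in shSORD, the largest sizes among the 9 members in each comparison, and both were called lower. SLC16A6 was higher in shAKR1B1 than in shSORD by 0.86 (SE 0.256, edgeR adjusted p = 0.0194). This last call was lost without shAKR1B1 replicate 3 (0.68, adjusted p = 0.105), shSORD replicate 1 (0.70, adjusted p = 0.0741) or shSORD replicate 2 (0.73, adjusted p = 0.0613), and when these 2 groups were fitted alone (0.85, adjusted p = 0.0502).

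SLC16A6 lies on chromosome 17 and overlaps ARSG, a lysosomal sulfatase gene on the opposite strand. ARSG had 2.39, 2.66 and 2.18 CPM in shAKR1B1 and 2.3, 2.05 and 2.11 CPM in shSORD, against 3.56, 4.38 and 4 CPM in plko. It was also lower in both knockdowns, with a log2 fold change of -0.72 in shAKR1B1 (edgeR adjusted p = 0.000232) and -0.89 in shSORD (adjusted p = 4.36e-05). Reads that fall where the genes overlap may belong to either. The pseudogene SLC16A6P1 held at most 3 reads in any library.

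SLC16A5 (ENSG00000170190), called MCT6 and known as a carrier of drugs such as bumetanide, had 75.1, 76.2 and 74.3 CPM in shAKR1B1 and 72.2, 74.1 and 57.4 CPM in shSORD, against 57, 50.6 and 51.5 CPM in plko. All knockdown libraries were above all plko libraries, although shSORD replicate 3 was only just above the highest of them. SLC16A5 had log2 fold changes of 0.50 (SE 0.0836) in shAKR1B1 and 0.36 (SE 0.0836) in shSORD, both called higher. Between the knockdowns SLC16A5 differed by 0.15 (SE 0.0828, not called, edgeR adjusted p = 0.198), or by 0.21 (adjusted p = 0.046) without shSORD replicate 2.

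SLC16A9 (ENSG00000165449), MCT9, known to carry carnitine and creatine, had 5.88, 5.7 and 5.54 CPM in shAKR1B1 and 3.94, 3.61 and 4.84 CPM in shSORD, against 3.7, 3.45 and 4.05 CPM in plko. The shAKR1B1 libraries lay above all others, and those of shSORD and plko overlapped. In log2 fold change, SLC16A9 stood at 0.61 (SE 0.12) in shAKR1B1, called higher, and 0.14 (SE 0.124) in shSORD, not called (edgeR adjusted p = 0.337). The difference between the knockdowns was itself called, at 0.47 (SE 0.118, higher in shAKR1B1, with all 3 of its libraries above all 3 of shSORD).

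SLC16A13 (ENSG00000174327), known from mouse liver as a lactate carrier, had 16.8, 15.9 and 15.7 CPM in shAKR1B1 and 15.1, 16.6 and 14.6 CPM in shSORD, against 14.1, 12.8 and 14 CPM in plko. All knockdown libraries were above all plko libraries, by little. The log2 fold change of 0.25 in shAKR1B1 (SE 0.0759, edgeR adjusted p = 0.0121) was called higher. Without plko replicate 2 it was 0.20 (adjusted p = 0.0695) and without shAKR1B1 replicate 1 it was 0.22 (adjusted p = 0.0526), and neither was called. The value in shSORD, 0.18 (SE 0.076, adjusted p = 0.0507), fell just outside the threshold and was called with DESeq2's size factors (0.19, adjusted p = 0.0434), with a stricter filter on counts (0.23, adjusted p = 0.0172) and without shSORD replicate 3 (0.24, adjusted p = 0.0116).

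SLC16A14 (ENSG00000163053), whose substrate is not settled, had 0.643, 0.469 and 0.882 CPM in shAKR1B1 and 0.44, 0.341 and 0.627 CPM in shSORD, against 0.469, 0.239 and 0.56 CPM in plko. All 3 groups overlapped, with 9 to 38 reads per library. It was called in no comparison (log2 fold changes of 0.65, 0.15 and 0.51 for shAKR1B1 against plko, shSORD against plko and shAKR1B1 against shSORD, with edgeR adjusted p of 0.117, 0.755 and 0.272).

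**Figure D2:**
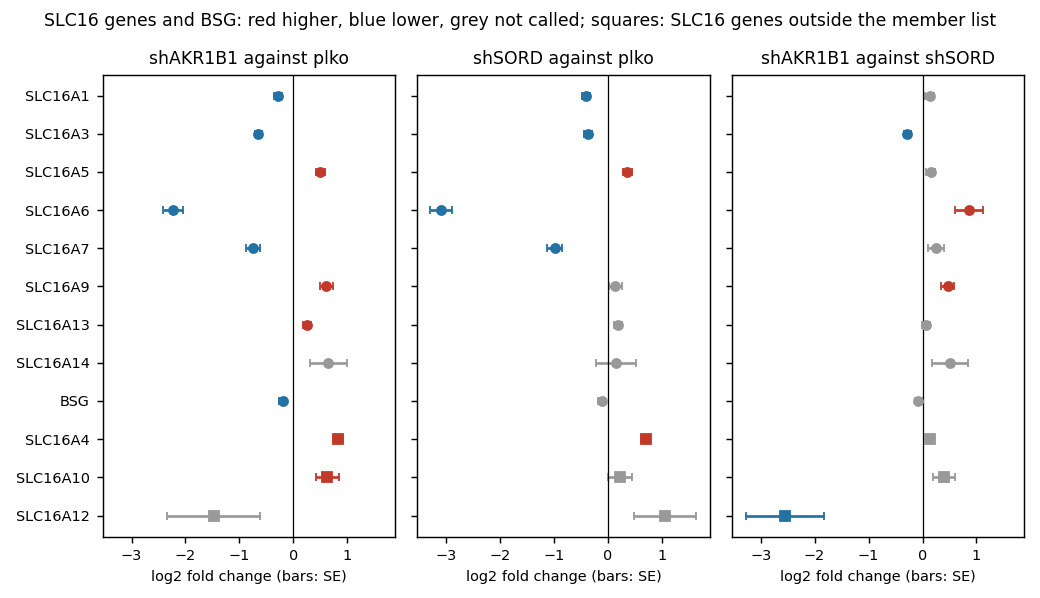
Log2 fold change (horizontal axis, bars are SE) of the 9 members (circles) and 3 other SLC16 genes (squares) in the 3 comparisons, shAKR1B1 against plko, shSORD against plko and shAKR1B1 against shSORD. SLC16A6 lies farthest left in both comparisons with plko among the members, at -2.23 and -3.09, and SLC16A12, with at most 20 reads in any library, has the widest bars.

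Further SLC16 genes of the table lie outside the member list. SLC16A4, whose substrate is not settled, had 89.7, 79.1 and 77.5 CPM in shAKR1B1 and 82.7, 63.7 and 78.2 CPM in shSORD, against 47.6, 45.7 and 44.8 CPM in plko. SLC16A4 was higher in both knockdowns, with log2 fold changes of 0.83 (adjusted p = 1.21e-06) and 0.70 (adjusted p = 8.21e-06), and the knockdowns overlapped (0.13 between them, adjusted p = 0.265).

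SLC16A10, the aromatic amino acid carrier TAT1, had 1.62, 1.13 and 1.07 CPM in shAKR1B1 and 0.803, 1 and 1.05 CPM in shSORD, against 0.801, 0.928 and 0.713 CPM in plko. It was called higher in shAKR1B1 (0.63, edgeR adjusted p = 0.0227). The call did not hold without shAKR1B1 replicate 1 (0.44, adjusted p = 0.122), plko replicate 1 (0.61, adjusted p = 0.0582) or plko replicate 3 (0.55, adjusted p = 0.0788). In shSORD it was 0.23 and not called (adjusted p = 0.406). SLC16A12, a creatine carrier, had 1 to 3 reads per library in shAKR1B1, 3 to 20 in shSORD and 3 to 10 in plko. It was called only between the knockdowns, and its fitted value of -2.55 (SE 0.729, adjusted p = 0.0157) depends on a prior count and is no bound. Without shAKR1B1 replicate 3 it was -2.16 (adjusted p = 0.0737), and in shSORD against plko it was 1.06 (adjusted p = 0.133), or 1.52 (adjusted p = 0.017) without shSORD replicate 1. SLC16A8, known from the retinal pigment epithelium, had at most 2 reads and SLC16A11 at most 1 in any library. A count of 0 allows up to 3 reads, which is 0.0696 to 0.0918 CPM here. This limit holds only for libraries with 0 reads of the gene.

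Levels were compared between genes only per kilobase, using the median length of each gene's protein-coding transcripts. In plko, BSG stood at 488 ± 11.9 CPM per kilobase, followed by SLC16A3 at 193 ± 8.21, SLC16A1 at 37.8 ± 0.619, SLC16A5 at 30 ± 1.95, SLC16A4 at 19.2 ± 0.596 and SLC16A13 at 7.78 ± 0.417 CPM per kilobase (SD, n = 3 each). SLC16A7, SLC16A6, SLC16A9, SLC16A10 and SLC16A14 followed at 2.01, 1.84, 0.954, 0.661 and 0.253 CPM per kilobase. In plko no library of a gene in this order overlapped those of the next gene down to SLC16A14.

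In shAKR1B1 the order of levels per kilobase was BSG (426), SLC16A3 (123), SLC16A5 (42.6), SLC16A4 (34.3), SLC16A1 (31.1), SLC16A13 (9.23), SLC16A9 (1.46), SLC16A7 (1.19), SLC16A10 (1.04), SLC16A14 (0.397) and SLC16A6 (0.389). SLC16A4 and SLC16A1 overlapped there, as did SLC16A7 and SLC16A10, and SLC16A14 and SLC16A6. In shSORD the order was BSG (451), SLC16A3 (149), SLC16A5 (38.5), SLC16A4 (31.3), SLC16A1 (28.4), SLC16A13 (8.83), SLC16A9 (1.06), SLC16A7 (1.01), SLC16A10 (0.773), SLC16A14 (0.281) and SLC16A6 (0.216). SLC16A5, SLC16A4 and SLC16A1 overlapped in turn there, and so did SLC16A9 with SLC16A7 and SLC16A14 with SLC16A6. By the median length SLC16A1 thus stood above SLC16A5 and SLC16A4 in plko but not in the knockdowns. By the longest transcript SLC16A1 was already below SLC16A5 in plko, at 19 against 25.9 CPM per kilobase. SLC16A6, which by the median length stood above SLC16A9 and SLC16A14 in plko, stood below SLC16A9 in both knockdowns and overlapped SLC16A14.

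The choice of length changes the order of levels for several genes. By the longest transcript SLC16A6 in shAKR1B1 stood at 0.21 CPM per kilobase, above SLC16A7 (0.184), SLC16A14 (0.151) and SLC16A10 (0.127). Its libraries there overlapped those of SLC16A7 and SLC16A14. In plko SLC16A7 then stood below SLC16A6 and SLC16A9, at 0.31 against 0.995 and 0.893. The protein-coding transcripts of SLC16A3 have a median of 913.5 and a maximum of 4830 bases. By the longest transcript the mean of SLC16A3 over all 9 libraries was 29.3 CPM per kilobase, against 31.9 for SLC16A5. By the median length these means were 155 and 37. The mean over all libraries hides a difference between groups. By the longest transcript SLC16A3 stood above SLC16A5 in plko, at 36.5 against 25.9 CPM per kilobase. It stood below SLC16A5 in shAKR1B1 (23.2 against 36.7) and, with overlapping libraries, in shSORD (28.3 against 33.1).

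**Figure D3:**
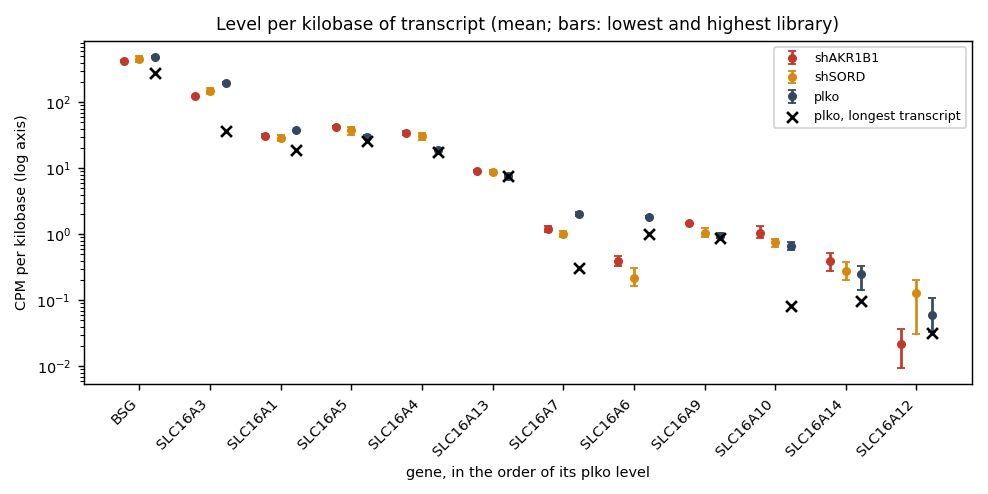
Level per kilobase of transcript (vertical log axis, CPM per kilobase) of BSG and 11 SLC16 genes in the order of their plko level, as the mean of 3 libraries per group with bars from the lowest to the highest library; crosses give the plko mean by the longest transcript. SLC16A6 is at 0.389 in shAKR1B1 and 0.216 in shSORD, against 1.84 in plko, and the SLC16A3 cross lies far below its dot.

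The genes around the transporters were taken from 10 lists of 93 genes, of which 75 passed the filter. In shAKR1B1 against plko 32 of them were called higher and 24 lower, and in shSORD against plko 19 were called higher and 31 lower. Between the knockdowns 24 were called higher and 14 lower in shAKR1B1. Over all genes, 27.8% were called higher and 29.6% lower in shAKR1B1, and 27.5% and 29% in shSORD. Between the knockdowns these shares were 15.5% and 15.1%. They are the background for these counts and for those of each list, and no list was tested as a set.

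**Figure D4:**
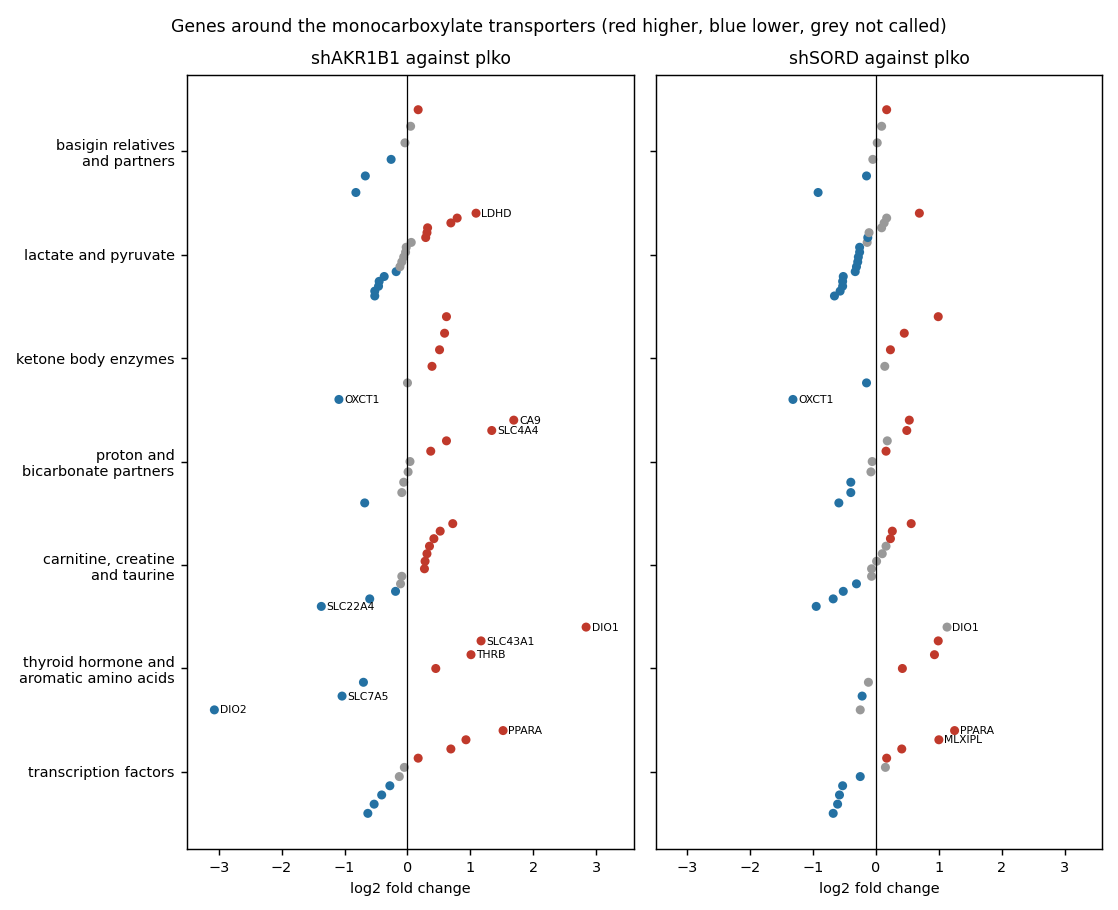
Log2 fold change (horizontal axis) of the tested genes of 7 lists (rows; 1 point per gene, sorted within its list) in shAKR1B1 against plko and shSORD against plko, with names at an absolute value of 1 or more. In the lactate and pyruvate list, with 18 genes tested, 6 were called higher and 6 lower in shAKR1B1, and 1 higher and 12 lower in shSORD. Over all genes the shares called higher and lower were 27.8% and 29.6% in shAKR1B1 and 27.5% and 29% in shSORD.

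Lactate and pyruvate handling supplies and uses what these transporters carry. Of 22 genes, 18 were tested, and 6 were called higher and 6 lower in shAKR1B1, with a median log2 fold change of -0.05. In shSORD 1 was called higher and 12 lower, with a median of -0.27. Among all genes tested, 27.8% were called higher and 29.6% lower in shAKR1B1, and 27.5% and 29% in shSORD. LDHA, the lactate dehydrogenase subunit that favours lactate production, had 1767, 1819 and 1867 CPM in shAKR1B1 and 1530, 1622 and 1857 CPM in shSORD, against 2425, 2562 and 2470 CPM in plko. Every knockdown library was below every plko library. LDHA fell by 0.45 in shAKR1B1 (edgeR adjusted p = 2.06e-05) and by 0.57 in shSORD (adjusted p = 2.2e-06) on the log2 scale. PKM, the pyruvate kinase of most tissues, fell by 0.52 (adjusted p = 1.5e-06) and by 0.53 (adjusted p = 1.36e-06), to 3218 ± 191 CPM in shAKR1B1 and 3187 ± 191 CPM in shSORD, against 4599 ± 51.4 CPM in plko (SD, n = 3 each).

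LDHB, the subunit that favours lactate use, averaged 1182 ± 25.1 CPM in shAKR1B1 and 1054 ± 57.9 CPM in shSORD, against 1137 ± 28.5 CPM in plko, and was called in neither comparison with plko (edgeR adjusted p = 0.355 and 0.0733, the second 0.0161 without shSORD replicate 3). LDHD, the D-lactate dehydrogenase, was low but higher in both knockdowns, at 5.78 ± 0.472 CPM in shAKR1B1 and 4.39 ± 1.03 CPM in shSORD, against 2.71 ± 0.459 CPM in plko. Its log2 fold changes were 1.09 (adjusted p = 4.51e-05) and 0.69 (adjusted p = 0.00262). PDHA1, a pyruvate dehydrogenase subunit, was -0.09 in shAKR1B1 (not called, adjusted p = 0.163) and -0.13 in shSORD (adjusted p = 0.0431). The shSORD call of PDHA1 was lost under 10 of the alternatives, including each plko library left out (adjusted p of 0.0749, 0.12 and 0.146) and DESeq2 (0.0572).

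MPC2 and the PDK genes act where pyruvate enters mitochondria and is oxidised. MPC2, a subunit of the mitochondrial pyruvate carrier, had 135, 129 and 128 CPM in shAKR1B1 and 84.8, 74.5 and 81.4 CPM in shSORD, against 75.9, 72.5 and 77.9 CPM in plko. The shAKR1B1 libraries lay far above all others. MPC2 was higher by a log2 fold change of 0.79 in shAKR1B1 (edgeR adjusted p = 3.41e-08) and 0.09 in shSORD (not called, adjusted p = 0.215, or 0.14 with adjusted p = 0.0334 without shSORD replicate 2), and the difference of 0.70 between the knockdowns was called (adjusted p = 4.03e-07).

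The PDK genes encode kinases that switch off pyruvate dehydrogenase. All 4 were higher in shAKR1B1 than in shSORD, by log2 fold changes of 0.54 for PDK1 (edgeR adjusted p = 8.03e-05), 0.56 for PDK2 (adjusted p = 2.19e-05), 0.63 for PDK3 (adjusted p = 8.76e-06) and 0.81 for PDK4 (adjusted p = 0.000114). Against plko, PDK1 was -0.12 in shAKR1B1 (adjusted p = 0.205) and -0.66 in shSORD (adjusted p = 4.75e-06). PDK2 was 0.69 in shAKR1B1 (adjusted p = 1.05e-06) and 0.13 in shSORD (adjusted p = 0.151, or 0.20 with adjusted p = 0.0178 without shSORD replicate 3). PDK3 was called in opposite directions, 0.31 in shAKR1B1 (adjusted p = 0.00193) and -0.33 in shSORD (adjusted p = 0.00143). PDK4 was 0.29 in shAKR1B1 (adjusted p = 0.047) and -0.52 in shSORD (adjusted p = 0.00198). Its shAKR1B1 call was lost in 5 of 6 fits that left out a library of either group, with adjusted p of 0.131, 0.0736 and 0.0772 without plko replicates 1, 2 and 3 and 0.178 and 0.0697 without shAKR1B1 replicates 1 and 2.

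Ketone bodies are carried by MCT1, MCT2 and SLC16A6. Of 8 ketone body enzymes 6 were tested. In shAKR1B1 4 were called higher and 1 lower (median log2 fold change 0.45), beside 27.8% and 29.6% of all genes. In shSORD 3 were called higher and 2 lower (median 0.19), beside 27.5% and 29% of all genes. OXCT1, which starts ketone body use, had 0.459, 0.518 and 0.51 CPM in shAKR1B1 and 0.44, 0.39 and 0.451 CPM in shSORD, against 0.994, 1.03 and 1.17 CPM in plko. All knockdown libraries were below all plko libraries, on at most 46 reads each. OXCT1 fell by 1.09 in shAKR1B1 (edgeR adjusted p = 0.000407) and by 1.32 in shSORD (adjusted p = 0.000105) on the log2 scale. On the side of synthesis, the cytosolic synthase HMGCS1, which mainly serves cholesterol synthesis, was higher by 0.51 (adjusted p = 8.83e-06) and 0.23 (adjusted p = 0.00614). BDH2, a cytosolic dehydrogenase, was higher by 0.59 (adjusted p = 0.000407) and 0.99 (adjusted p = 2.39e-06). ACAT1, a mitochondrial thiolase, was -0.00 in shAKR1B1 (adjusted p = 0.976) and -0.15 in shSORD (adjusted p = 0.0443). The second value of ACAT1 was not called under 9 alternatives, among them plko replicate 2 (adjusted p = 0.119) or 3 (0.191) left out, shSORD replicate 1 (0.178) or 2 (0.0954) left out, and DESeq2 (0.0542).

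Because these carriers move a proton with each anion, carbonic anhydrases and exchangers of protons and bicarbonate act beside them. Of 12 such genes 9 were tested. In shAKR1B1 4 were called higher and 1 lower (median log2 fold change 0.04), beside 27.8% and 29.6% of all genes. In shSORD 3 were called higher and 3 lower (median -0.06), beside 27.5% and 29% of all genes. CA9, the hypoxia-associated surface carbonic anhydrase, had 15.5, 16.7 and 17.4 CPM in shAKR1B1 and 7.38, 7.02 and 7.8 CPM in shSORD, against 5.85, 5.3 and 4.25 CPM in plko. No groups overlapped. CA9 was higher by a log2 fold change of 1.69 in shAKR1B1 (edgeR adjusted p = 4.98e-09) and 0.53 in shSORD (adjusted p = 0.00086). CA12, also at the cell surface, averaged 2387 ± 85.8 CPM in shAKR1B1 and 1771 ± 104 CPM in shSORD, against 1849 ± 24.5 CPM in plko (SD, n = 3 each), with log2 fold changes of 0.37 (adjusted p = 2.14e-05) and -0.06 (not called, adjusted p = 0.313). The cytosolic CA2 was called in opposite directions, 0.62 in shAKR1B1 (adjusted p = 7.61e-05) and -0.40 in shSORD (adjusted p = 0.00525).

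Among the exchangers, the sodium-bicarbonate cotransporter SLC4A4 had 30.9, 29.9 and 30.6 CPM in shAKR1B1 and 13.2, 8.85 and 12 CPM in shSORD, against 12.8, 11.7 and 11.5 CPM in plko. It was higher by a log2 fold change of 1.34 in shAKR1B1 (edgeR adjusted p = 7.63e-08), was not called in shSORD (-0.08, adjusted p = 0.571), and differed between the knockdowns by 1.42 (adjusted p = 1.43e-07). The chloride-bicarbonate exchanger SLC4A2 fell by 0.68 (adjusted p = 3.5e-07) in shAKR1B1 and by 0.40 (adjusted p = 6.91e-05) in shSORD. SLC4A7 was called in neither (adjusted p = 0.94 and 0.114), although in shSORD it was 0.30 (adjusted p = 0.00111) without shSORD replicate 2 and 0.22 (adjusted p = 0.0495) with the stricter filter.

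Carnitine, creatine and taurine are substrates reported for some family members. Of 13 genes handling them 12 were tested. In shAKR1B1 7 were called higher and 3 lower (median log2 fold change 0.27), beside 27.8% and 29.6% of all genes. In shSORD 3 were called higher and 4 lower (median -0.03), beside 27.5% and 29% of all genes. SLC22A4, an ergothioneine carrier related to the carnitine carriers, fell to 2.15 ± 0.151 CPM in shAKR1B1 and 2.86 ± 0.0242 CPM in shSORD, against 5.55 ± 0.402 CPM in plko (SD, n = 3 each), with log2 fold changes of -1.37 (edgeR adjusted p = 1.13e-07) and -0.95 (adjusted p = 3.78e-06). SLC22A5, the main carnitine carrier of the plasma membrane, was instead higher, by 0.27 in shAKR1B1 (adjusted p = 0.00076) and 0.56 in shSORD (adjusted p = 8.85e-07). CPT1A, which loads fatty acids onto carnitine, was higher by 0.42 (adjusted p = 1.72e-05) and 0.23 (adjusted p = 0.00336). CRAT, the carnitine acetyltransferase, was 0.28 in shAKR1B1 (adjusted p = 0.00377) and -0.07 in shSORD (adjusted p = 0.444). The taurine carrier SLC6A6 fell by 0.19 (adjusted p = 0.00414) in shAKR1B1 and by 0.68 (adjusted p = 3.97e-08) in shSORD.

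Of 10 genes of thyroid hormone and aromatic amino acid handling 7 were tested. In shAKR1B1 4 were called higher and 3 lower (median log2 fold change 0.45), beside 27.8% and 29.6% of all genes. In shSORD 3 were called higher and 1 lower (median 0.42), beside 27.5% and 29% of all genes. DIO2, the deiodinase that activates thyroid hormone, had 0.521, 0.592 and 0.789 CPM in shAKR1B1 and 3.08, 4.75 and 5.82 CPM in shSORD, against 5.19, 5.41 and 5.7 CPM in plko. The shAKR1B1 libraries lay far below the rest. DIO2 fell by 3.07 on the log2 scale in shAKR1B1 (edgeR adjusted p = 4.15e-08) and was not called in shSORD (-0.25, adjusted p = 0.226, or -0.45 with adjusted p = 0.0237 without shSORD replicate 3). The deiodinase DIO1 had 11 to 14 reads per library in shAKR1B1 and 4 in shSORD, against 1 to 2 in plko, too few for a fold. The hormone receptor genes THRB and THRA were higher in both knockdowns, THRB by 1.01 (adjusted p = 1.04e-05) and 0.99 (adjusted p = 1.59e-05), and THRA by 0.45 (adjusted p = 3.29e-05) and 0.42 (adjusted p = 7e-05).

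The amino acid carriers of this list moved in both directions. SLC7A5, which carries large neutral amino acids and thyroid hormone with the SLC3A2 chain, had 771, 859 and 993 CPM in shAKR1B1 and 1390, 1859 and 1698 CPM in shSORD, against 1830, 1754 and 1801 CPM in plko. It fell by 1.04 in shAKR1B1 (edgeR adjusted p = 3.28e-07) and was not called in shSORD (-0.12, adjusted p = 0.287, or -0.22 with adjusted p = 0.0403 without shSORD replicate 2 and -0.13 with adjusted p = 0.0399 without a filter). SLC43A1 was higher, by a log2 fold change of 1.17 (adjusted p = 2.38e-07) and 0.93 (adjusted p = 3.19e-06). SLC43A2 was -0.70 in shAKR1B1 (adjusted p = 2.65e-06) and -0.22 in shSORD (adjusted p = 0.0218). The shSORD call of SLC43A2 was lost under 5 alternatives, among them plko replicate 1 (adjusted p = 0.0998) and shSORD replicate 1 (0.102) or 3 (0.0644) left out.

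All 10 transcription factors and coactivators listed as acting on SLC16 genes were tested. In shAKR1B1 4 were called higher and 4 lower (median log2 fold change -0.09), beside 27.8% and 29.6% of all genes. In shSORD 4 were called higher and 5 lower (median -0.05), beside 27.5% and 29% of all genes. HIF1A, the hypoxia-inducible factor known to drive MCT4, had 410, 379 and 387 CPM in shAKR1B1 and 320, 282 and 333 CPM in shSORD, against 468, 491 and 467 CPM in plko. No groups overlapped, and shSORD was lowest. HIF1A fell by 0.28 in shAKR1B1 (edgeR adjusted p = 0.00122) and by 0.61 in shSORD (adjusted p = 9.95e-07), and its relative EPAS1 fell by 0.41 (adjusted p = 3.12e-06) and 0.58 (adjusted p = 1.25e-07). MYC, known to drive MCT1, fell by 0.63 (adjusted p = 2.97e-07) and by 0.68 (adjusted p = 1.6e-07), to 97.4 ± 4.5 CPM in shAKR1B1 and 93.7 ± 5.06 CPM in shSORD, against 150 ± 4.34 CPM in plko (SD, n = 3 each). These are transcript levels, and the amounts of the factors were not measured.

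PPARA, a fatty acid receptor that acts on MCT1 in liver, was higher at 22.6 ± 1.07 CPM in shAKR1B1 and 18.8 ± 2.67 CPM in shSORD, against 7.89 ± 0.258 CPM in plko (SD, n = 3 each), with log2 fold changes of 1.52 (edgeR adjusted p = 6.16e-09) and 1.25 (adjusted p = 7.23e-08). Of the glucose-sensing partners of MLX, MLXIPL was higher by 0.93 (adjusted p = 0.000201) and 1.00 (adjusted p = 0.000107). MLXIP was -0.05 in shAKR1B1 (not called, adjusted p = 0.487) and 0.41 in shSORD (adjusted p = 1.34e-05).

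For SLC16A6, SLC16A3, SLC16A1 and SLC16A7, the 3 genes most like each were found by Pearson's r over the 9 libraries, among 12727 genes. The r was taken on log2 CPM after a small fixed constant was added to every CPM. That constant is close to the SLC16A6 mean of shSORD (0.443 CPM). It therefore narrows the spacing of SLC16A6 between groups, and its matches depend on it. The 9 points fall into the 3 groups and share their libraries and depths, so r mainly describes the order and spacing of the group levels. SLC16A6 was most like EREG (r = 0.999), encoding the growth factor epiregulin, LINC00973 (r = 0.998) and the hyaluronan synthase HAS3 (r = 0.996). SLC16A3 was most like the kinase LIMK1 (r = 0.997), SLC4A2 (r = 0.996) and SPSB1 (r = 0.995). SLC16A1 was most like BTBD10 (r = 0.995), AGK (r = 0.993) and YWHAE (r = 0.993). SLC16A7 was most like the gap junction gene GJA1 (r = 0.987), CRISPLD1 (r = 0.986) and ZP3 (r = 0.985). In log2 fold change, EREG was -1.40 in shAKR1B1 and -1.84 in shSORD, LINC00973 -1.82 and -2.36, and HAS3 -1.50 and -1.94, each less in size than the -2.23 and -3.09 of SLC16A6.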

How the data were processed

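RNA was extracted with Qiazol and a miRNeasy kit and libraries were built with a stranded TruSeq mRNA kit, per the labels' protocols. The authors deposited raw counts of reads per Ensembl gene in 9 A549 libraries. The submitters' processing notes name featureCounts 1.5.1 (Subread), STAR 2.5.2b, cutadapt 1.9.1, DESeq2 1.12.3 and build GRCh37. For the strand setting and for multiply mapped reads nothing is stated there. Symbols were matched to 51996 of 57905 gene IDs, and all 129 list entries matched a single ID.

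Counts were fitted with edgeR 4.0.16 (R 4.3.3): TMM scaling, filterByExpr, 1 mean per group over all 9 libraries, quasi-likelihood tests and Benjamini-Hochberg adjustment over 16916 genes, with a common biological coefficient of variation of 6.59%. CPM are counts over the TMM-scaled library size. An SE is the log2 fold change over the square root of F. Levels per kilobase used the median length of protein-coding GENCODE transcripts. The fits were also run on simulated counts with few changed genes and the same spread for every gene. That setting is simpler than these data, so the run checks the code only. The design text calls the 3 libraries of a group biological replicates, but does not say what separates them, so the p-values cover the spread from library to library, which could be technical.

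Deviations from the group mean correlated by 0.163, 0.281 and 0.207 in same-numbered shAKR1B1 and shSORD libraries. Differently numbered ones correlated by -0.275 to 0.0695. All are taken from group means and so depend on one another. The numbers may pair these libraries, but the labels name no pairing and it was not tested. Same-numbered correlations of plko with either knockdown ran from -0.0536 to 0.0688. Alternatives were DESeq2 1.42.0, its size factors, no filter, a mean of at least 50 counts, a replicate block, 2 groups only and each library left out.

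The members and lists were chosen with earlier results of these data known. Named were all members, further SLC16 genes and overlapping or antisense neighbours; from each further list, called genes with an absolute log2 fold change of at least 1 in any comparison, and otherwise up to 4 of the most abundant; and the 3 most similar genes. EMB, NPTN, MPC2, PDK1 to PDK4 and CSNK1D were named after their values were seen, for their role or position. Protein sequences were not analysed here, and some genes of the lists are counted but not reported here.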

Additional observations from a re-analysis of the deposited data

Results flagged for a closer look

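Genes of the family whose level differed between the 2 knockdowns in the fit across all genes are listed here for a closer look, since both hairpins hit the same pathway. In shAKR1B1 against shSORD, SLC16A3 had a log2 fold change of -0.28 (edgeR adjusted p = 0.00597), with 3 of 3 libraries below. SLC16A9 was higher by 0.47 (edgeR adjusted p = 0.00746), with 3 of 3 above. SLC16A6 was higher by 0.86 (edgeR adjusted p = 0.0194), with 3 of 3 above, but the call was lost under 4 alternatives (adjusted p between 0.0502 and 0.105), with shAKR1B1 replicate 3, shSORD replicate 1 or shSORD replicate 2 left out and with 2 groups only. SLC16A12 was lower, at -2.55 (edgeR adjusted p = 0.0157), on 1 to 3 reads per library in shAKR1B1 and 3 to 20 in shSORD, and was not called without shAKR1B1 replicate 3 (adjusted p = 0.0737). SLC16A3, SLC16A6 and SLC16A9 were chosen with these values in view.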

How the results depend on the processing

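Over all settings, 302 fold changes of the members kept their direction and their side of the threshold, 9 were no longer called, 8 became called and 2 changed sign without a call. Members called higher in shSORD against plko numbered 2 instead of 1 with DESeq2's size factors and with the stricter filter, and 1 to 2 with a library left out. Those higher in shAKR1B1 against shSORD numbered 1 instead of 2 with 2 groups only, and 1 to 3 with a library left out; those lower numbered 1 to 2. With a replicate block, 4 members were called higher and 5 lower in shAKR1B1 against plko, SLC16A14 being added (0.66, edgeR adjusted p = 0.045), and the block changed no other member's call, including all of shAKR1B1 against shSORD. By the longest transcript, mean levels per kilobase were 16.3 for SLC16A1, 29.3 for SLC16A3, 31.9 for SLC16A5, 0.44 for SLC16A6, 0.216 for SLC16A7, 0.118 for SLC16A14 and 263 for BSG, against 32.4, 155, 37, 0.816, 1.4, 0.31 and 455 by the median; longer lengths alone lower them. Values near 0 that changed sign were ACAT1 in shAKR1B1 against plko (0.01 with DESeq2 and with its size factors, 0.03 with the stricter filter, 0.02 with 2 groups only) and SLC4A7 (-0.00 without a filter). With a library left out, shAKR1B1 against plko ranged from -0.04 to 0.03 for ACAT1, -0.05 to 0.09 for SLC4A7 and -0.03 to 0.19 for EMB. Likewise shSORD against plko ranged from -0.10 to 0.18 for EMB, -0.14 to 0.42 for SLC16A14, -0.12 to 0.06 for SLC3A2, -0.22 to 0.00 for SLC7A5, -0.19 to 0.07 for SLC4A4 and -0.12 to 0.04 for CRAT. The cause was not tested. Counts of genes called over all genes stayed within 1.5 times under each setting. Low counts limit the precision of SLC16A14, SLC16A10 and SLC16A12, and of SLC16A6 in the knockdowns, and left SLC16A8 and SLC16A11 untested.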

Other observations

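The sodium-coupled monocarboxylate transporters SLC5A8 and SLC5A12, which take up the same acids by another mechanism, had 0 reads in all 9 libraries. The pseudogenes SLC16A1P1 and SLC16A14P1 and the antisense transcript SLC16A12-AS1 also had 0 reads in all 9. SLC16A4-AS1, which overlaps SLC16A4 on the opposite strand, had 1.68, 1.83 and 2.06 CPM in shAKR1B1 and 2.33, 1.17 and 2.03 CPM in shSORD, against 1.02, 1.48 and 1.58 CPM in plko. It was not called in either comparison with plko (log2 fold changes of 0.45 and 0.43, edgeR adjusted p = 0.114 and 0.134), whereas SLC16A4 was called higher in both.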
